A study of Sus scrofa with 8 samples.

Results

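The comparison described here set the testes of 4 full brothers against those of 4 other boars of the same feeding experiment. The brothers m_9597, m_9598, m_9599 and m_9600 are 4 of the 8 boars whose testis RNA was measured, and they were chosen by their litter and not by any measured value. Boars are named by the end of their sample titles, and the brothers are known from their animal numbers, which are those of the litter whose sperm RNA the study sequenced. All 8 were Large White boars fed from month 1 to month 10 of age, either on a control diet or on the same diet with added methionine, choline, betaine, vitamin B6, vitamin B12 and folate. Among the brothers, m_9597 and m_9599 received the supplemented and m_9598 and m_9600 the control diet. Among the other boars, m_9499 and m_9527 received the supplemented and m_9502 and m_9528 the control diet. The diets were therefore balanced over the sides of the comparison, and diet was a term in the fits unless stated otherwise. According to the methods the boars came from 3 litters, without a statement of which litter each of the other 4 belonged to. The 4 brothers were hybridized together on slide 1 and the other boars on slide 2, so that litter and slide cannot be told apart in any value given below.

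Full brothers share their parents and the sow's uterus, and at each place in the genome they draw from the same 4 parental chromosomes. Genetic variants near a gene are a well known source of expression differences between families, and such differences often concern a single gene and its close neighbours. The testis holds germ cells in tubules with Sertoli cells, and between the tubules the Leydig cells, which in the boar make large amounts of androgens and oestrogens. In bulk tissue, fewer cells of a type and less RNA per cell cannot be told apart.

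RNA of each testis was labelled with 1 dye (Cy3) and hybridized to 1 porcine Agilent array. The median intensity of the spots that are not controls lay between 129.5 and 192.5 in the brothers and between 108 and 174 in the other boars, and 76.3% to 86.5% of the spots were well above background. The defining transcripts of the tissue were bright on both sides, with a mean log2 signal of 18.6 in the brothers and 18.56 in the other boars for the protamine PRM1 (probe A_72_P223762) and of 18.6 and 18.63 for the Leydig cell hormone INSL3 (A_72_P232832). All signals are given on the log2 scale after quantile normalization, without background subtraction, and differences are the brothers minus the other boars. A difference of 1 on this scale is 2-fold, and the change of dim probes is understated. Of 43603 probes, 36982 were present, and 2918 of these carried a gene name. The boars of a side are single animals measured once each, so the P-values measure the spread between boars and arrays together. The brothers are all of 1 litter, so on their side this spread holds none between litters.

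The brothers were more alike than the other boars were. Over the present probes the root mean square difference between 2 brothers was 0.31 to 0.45 in the 6 pairs, with a median of 0.4. Between 2 of the other boars it was 0.42 to 0.95 with a median of 0.64, and between a brother and another boar 0.42 to 0.8 with a median of 0.58. The standard deviation of a probe had a median of 0.183 over the 4 brothers and of 0.33 over the 4 other boars, and it was the smaller one in the brothers for 29187 probes (78.9%). Much of this rested on the control boar m_9528. Without it the median standard deviation of the other boars was 0.216, and the brothers had the smaller one in 58.5% of the probes. Within the brothers the boar that stood farthest from the rest was m_9598, without which the median was 0.145. These are descriptions of 4 boars a side with no test. All pairs of brothers shared a litter and a slide, while the other boars shared a slide but came from the remaining litters.

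**Figure D1:**
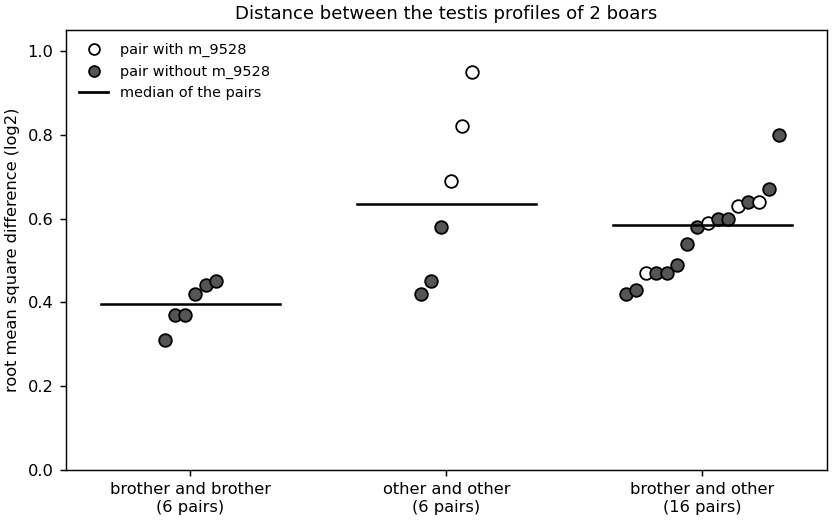
Root mean square difference of the normalized log2 signal over 36982 present probes (vertical axis) for each pair of boars, by kind of pair. Each point is a pair, open points are pairs with m_9528 and the line is the median. The 6 pairs of brothers lie between 0.31 and 0.45, and the 3 largest distances among the other boars all involve m_9528.

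The main axis of the data did not separate the brothers from the other boars. The first principal component held 53.2% of the variance and ran from m_9527 (-0.58) and m_9502 (-0.38) over m_9499 (-0.12) to the brothers m_9599 (0), m_9597 (0.04), m_9600 (0.07) and m_9598 (0.36), with m_9528 at the far end (0.61). The other boars thus lay at both ends and 3 of the brothers near the middle. The second component held 13.5%, and here the brothers lay between -0.58 and -0.18 and the other boars between 0.15 and 0.58. Of the summed variance, 17.1% lay between the sides, 15.4% between the diets, 9.18% in their interaction, each with 1 degree of freedom, and 58.3% within side and diet with 4 degrees of freedom. After each probe's mean was removed, the arrays of 2 brothers correlated at -0.01 to 0.13 across probes, those of 2 other boars at -0.65 to 0.52, and the brother m_9598 correlated best with m_9528 of the other side (0.5).

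Spike-in RNA, which is added in the laboratory and does not come from the boars, gave values that bear on the arrays themselves. All 10 spike-in transcripts had a lower mean in the brothers, with a median difference of -0.27 after normalization and -0.08 before it. After normalization the differences ranged from -1.45 to -0.08. The values of the sides overlapped in each of the 10, but at several of them through m_9528 alone. Before normalization E1A_a22 read 10.48, 10.75, 10.46 and 10.58 in m_9597, m_9599, m_9598 and m_9600. In m_9499, m_9502, m_9527 and m_9528 it read 10.95, 10.99, 11.18 and 9.58. At others, such as E1A_3, the sides overlapped without m_9528 as well. The spike-in E1A_n9, for example, read 15.93, 15.74, 15.33 and 16.02 in m_9597, m_9599, m_9598 and m_9600, and 16.04, 16.47, 16.87 and 14.67 in m_9499, m_9502, m_9527 and m_9528. For this spike-in the lowest values were those of m_9528 and m_9598 and the highest those of m_9527 and m_9502, the same boars that lay at the ends of the first component. The largest difference was that of E1A_a107, which read 6.31, 7.11, 6.02 and 6.58 in m_9597, m_9599, m_9598 and m_9600. In m_9499, m_9502, m_9527 and m_9528 it read 7.49, 9.07, 9.48 and 5.79, so that m_9528 was low with the brothers. The part of these spike-in patterns in the differences below was not tested. Over 64 blocks of the array surface the median difference lay between -0.21 and 0.21. These medians changed gradually over the surface. Along row 1 of the blocks they went from 0.14 at the first to -0.21 at the last block, and along row 7 from -0.17 to 0.07. For scale, the median size of the side difference over all probes was 0.179. The part of this pattern in the differences below was not tested either.

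No probe differed between the brothers and the other boars after adjustment for all 36982 tests (0%). A probe of TMOD3 came closest, with an adjusted P-value of 0.117 from limma, and an ordinary linear model also gave 0 adjusted calls, with 3318 probes under 0.05 without adjustment. Without adjustment 2999 probes had a limma P-value under 0.05, which is 8.11% of the probes where 5% would be 1849, with 1262 higher (3.41%) and 1737 lower (4.7%) in the brothers. In 2287 probes (6.18%) the 4 brothers lay wholly above or wholly below the 4 other boars, in 888 of them above (2.4%) and in 1399 below (3.78%). The split by direction moved with the scaling. Where each array was scaled to its 75th percentile instead of quantile normalization, 632 were higher and 2926 lower, and the median difference of all probes moved to -0.1, while the background-subtracted signal with the same scaling gave 699 higher and 2375 lower. At least 2-fold differences were found in 274 probes, 100 of them higher and 174 lower, and 92 of the 274 had no overlap between the sides.

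Leaving out m_9528 changed this picture more than leaving out any other boar. The array of m_9528 also had the lowest median spike-in signal before normalization, 8.9 against 9.63 to 10.31 on the other arrays. Since each boar was measured on 1 array, a property of this boar and of its array cannot be told apart. In the 7 remaining boars 9519 probes (25.7%) had a limma P-value under 0.05, 4946 higher (13.4%) and 4573 lower (12.4%) in the brothers. The 4 brothers were separated from the remaining 3 boars in 10084 probes (27.3%), by higher values in 5067 (13.7%) and by lower values in 5017 (13.6%). When another boar was left out, 1557 to 3351 probes were under 0.05 and 2841 to 3518 did not overlap. With m_9528 left out 9 probes passed the adjusted threshold, each with an adjusted P-value of 0.0457 from limma, among them TMOD3 and AKR1C1 and 7 probes without a gene name. On the control side of this fit a single other boar, m_9502, remained, and its spread was taken to be like that of the rest.

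**Figure D2:**
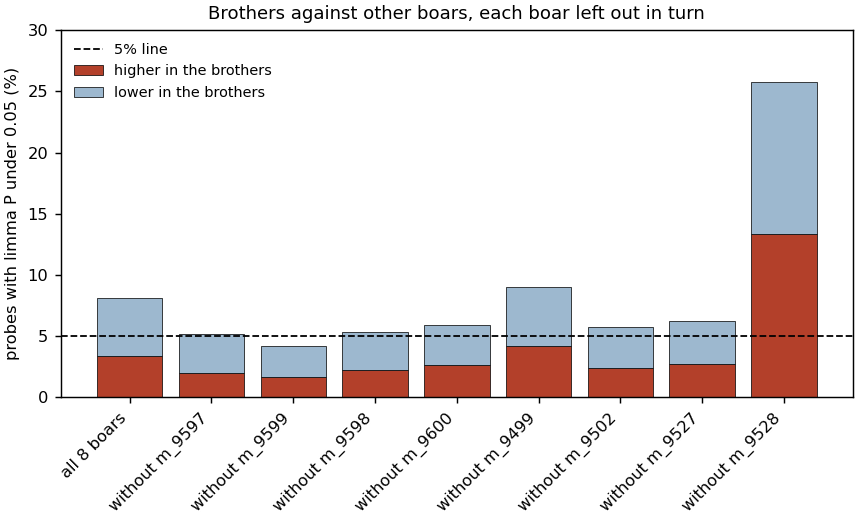
Share of the 36982 present probes with a limma P-value under 0.05 (vertical axis, percent) with all 8 boars and with each boar left out, split into probes higher and lower in the brothers. The dashed line marks 5%. The share is 8.11% with all boars and 25.7% without m_9528.

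The gene with the smallest P-value was TMOD3, whose protein caps the slow-growing ends of actin filaments. Its probe (A_72_P302654) read 8.95, 8.6, 9.07 and 9.1 in the brothers m_9597, m_9599, m_9598 and m_9600. In m_9499, m_9502, m_9527 and m_9528 it read 6.97, 6.43, 6.57 and 7.08. The sides were thus far apart and narrow, with a lowest brother of 8.6 and a highest other boar of 7.08, and m_9528 did not stand out. The difference was 2.17 (standard error 0.2, limma adjusted P = 0.117), which is 4.49-fold. Within the supplemented boars it was 2, and within the control boars 2.33. The adjusted P-value was below 0.05 with either scaling to the 75th percentile (0.0273 for the median signal and 0.0487 for the background-subtracted signal), without the diet term (0.043), with array weights (0.0263) and without m_9528 (0.0457). In all other alternatives it was not below 0.05. The smallest limma adjusted P-value of any probe was 0.497 with places of the slide as a term and 0.59 without m_9597. In the ordinary linear model it was 0.35.

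The largest difference upward among the named genes was that of TNC, tenascin-C, a glycoprotein of the extracellular matrix. The brothers m_9597, m_9599, m_9598 and m_9600 read 11.35, 11.8, 10.7 and 10.74 (probe A_72_P035426), and m_9499, m_9502, m_9527 and m_9528 read 7.76, 8.12, 9.76 and 7.29. The sides did not overlap, and m_9527 was the highest and m_9528 the lowest of the other boars. The difference was 2.92 (standard error 0.41, limma adjusted P = 0.447), a 7.55-fold higher signal, and it was much the same on the supplemented (2.82) and the control diet (3.02).

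FGL2 encodes a fibrinogen-like protein secreted by immune cells, and its 3 probes did not read alike. The probe A_72_P351123 read 9.25 to 9.57 in the brothers and 6.17 to 8.02 in the other boars, a difference of 2.18 (standard error 0.35, limma adjusted P = 0.45). The probe A_72_P180891 also showed no overlap, with a smaller difference of 0.7. The third probe, A_72_P077766, gave 9.71 ± 0.34 in the brothers and 9.6 ± 0.35 in the other boars (SD, n = 4 each), a difference of 0.11 that lay within the spread. The large difference thus stood at 1 of the 3 probes.

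The largest difference downward was that of AKR1C1. Aldo-keto reductases of this family reduce ketosteroids and other carbonyl compounds. In the RefSeq annotation of the pig (assembly Sscrofa11.1, used for names and gene order) a first AKR1C1 gene, a second gene of the same symbol, AKR1CL1 and AKR1E2 lie in 1 neighbourhood, and near-identical copies may share the signal of a probe. The probe A_72_P077461 of the first AKR1C1 gene read 9.69, 9.41, 9.91 and 8.89 in m_9597, m_9599, m_9598 and m_9600. In m_9499, m_9502, m_9527 and m_9528 it read 15.29, 14.02, 13.43 and 10.02. All brothers and m_9528 were near the low level, and the other 3 boars were high. The difference was -3.72 (standard error 0.89, limma adjusted P = 0.548) with all boars, a 13.1-fold lower signal in the brothers, and -4.73 without m_9528.

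The other probe of the same AKR1C1 gene, A_72_P076786, also had m_9499, m_9502 and m_9527 high. It read 6.02, 6.02, 6.65 and 5.26 in the brothers m_9597, m_9599, m_9598 and m_9600, and 12.72, 11.13, 10.2 and 6.29 in m_9499, m_9502, m_9527 and m_9528. Here m_9528 lay below the brother m_9598, so that the sides overlapped, and the difference was -4.1 (standard error 1.09, limma adjusted P = 0.554). The second AKR1C1 gene had a difference of -0.44 (A_72_P223422) and AKR1E2 of -0.44 (A_72_P078096), both with overlapping sides. The 4 probes of AKR1CL1, which is next to the first AKR1C1 gene, leaned the other way by 0.4 to 0.89, again with overlap. The signs of all 8 probes were kept under the 3 other scalings and without m_9528.

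**Figure D3:**
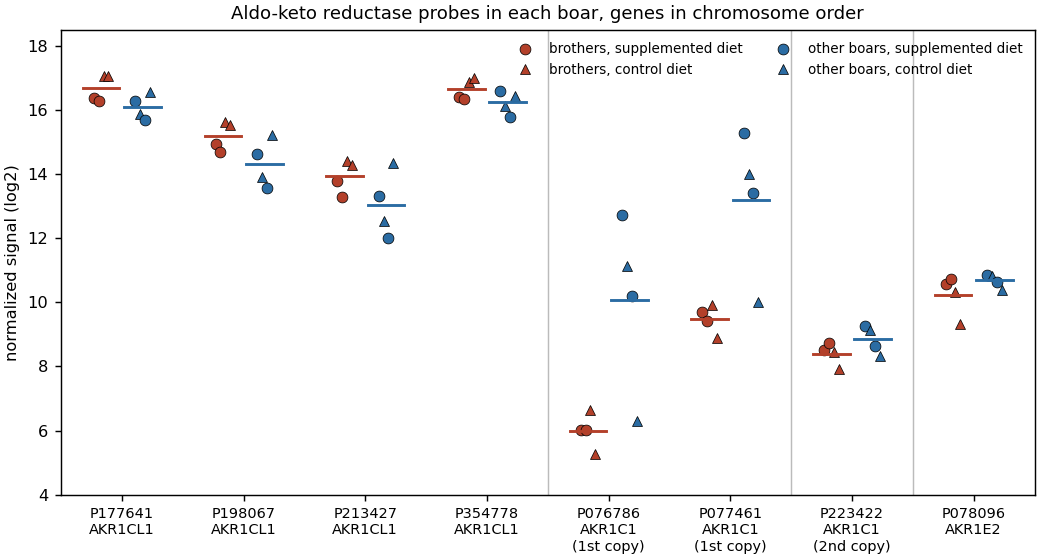
Normalized log2 signal (vertical axis) of the 8 present probes of AKR1CL1, the first and second AKR1C1 gene and AKR1E2 in each boar, genes in the order of the pig RefSeq annotation. Circles are the supplemented and triangles the control diet, red the brothers and blue the other boars, and lines are means of 4 boars. At both probes of the first AKR1C1 gene m_9499, m_9502 and m_9527 lie above all brothers, and m_9528 lies at 6.29 and 10.02.

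Among the further genes with higher values in all brothers, several act in metabolism and transport. ALDH2, the mitochondrial aldehyde dehydrogenase, had 3 present probes, and each gave a limma P-value under 0.05, with differences of 0.62, 0.78 and 0.83. At the last of these (A_72_P240517) the brothers m_9597, m_9599, m_9598 and m_9600 read 9.64, 9.52, 9.7 and 10.06 and m_9499, m_9502, m_9527 and m_9528 read 8.83, 8.46, 8.92 and 9.4, without overlap (limma adjusted P = 0.554). At the other ALDH2 probes the sides overlapped, with m_9528 above the brother m_9599. The values were 13.28 against 13.2 (A_72_P217642) and 6.49 against 6.45 (A_72_P228377). Of 552 genes with 2 or more present probes, ALDH2 and 5 others (OSTN, PTGER3, CDCA7, GNA14 and KCNIP1) had a P-value under 0.05 and a higher mean in the brothers at every probe, and 0 genes had this with a lower mean. The 5 others had 2 probes each. Over all named present probes, 127 were higher and 90 lower at a limma P-value under 0.05. The gene count was not repeated under the other scalings, with which the split by direction moved. ACY1, which removes acetyl groups from amino acids, differed by 0.85 (limma adjusted P = 0.573), and SLC5A4, of the sodium and glucose transporter family, by 0.79 (limma adjusted P = 0.563). For SLC5A4 the gap between the sides was small, from 12.1 in m_9528 to 12.11 in the lowest brothers. MGAT4C, of a family of enzymes that branch sugar chains on proteins, differed by 0.89 at A_72_P180821 and by 0.22 at its other probe, where the sides overlapped. EAPP, a nuclear protein that binds E2F factors, differed by 0.89 (standard error 0.21, limma adjusted P = 0.5).

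The remaining higher genes were a cytokine and a receptor. IL15, a cytokine that maintains natural killer and memory T cells, was dim, with 6.53 to 7.48 in the brothers and 5.72 to 6.32 in the other boars (difference 0.96, limma adjusted P = 0.45). ESR1, the oestrogen receptor alpha, read 6.28, 6.44, 6.21 and 6.08 in m_9597, m_9599, m_9598 and m_9600, and 5.59, 5.52, 5.29 and 5.6 in m_9499, m_9502, m_9527 and m_9528. Its difference of 0.76 (standard error 0.14, limma adjusted P = 0.45) was larger than the spread within either side, but the signal was near background, and in 1 of the other boars the probe was not well above it.

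**Figure D4:**
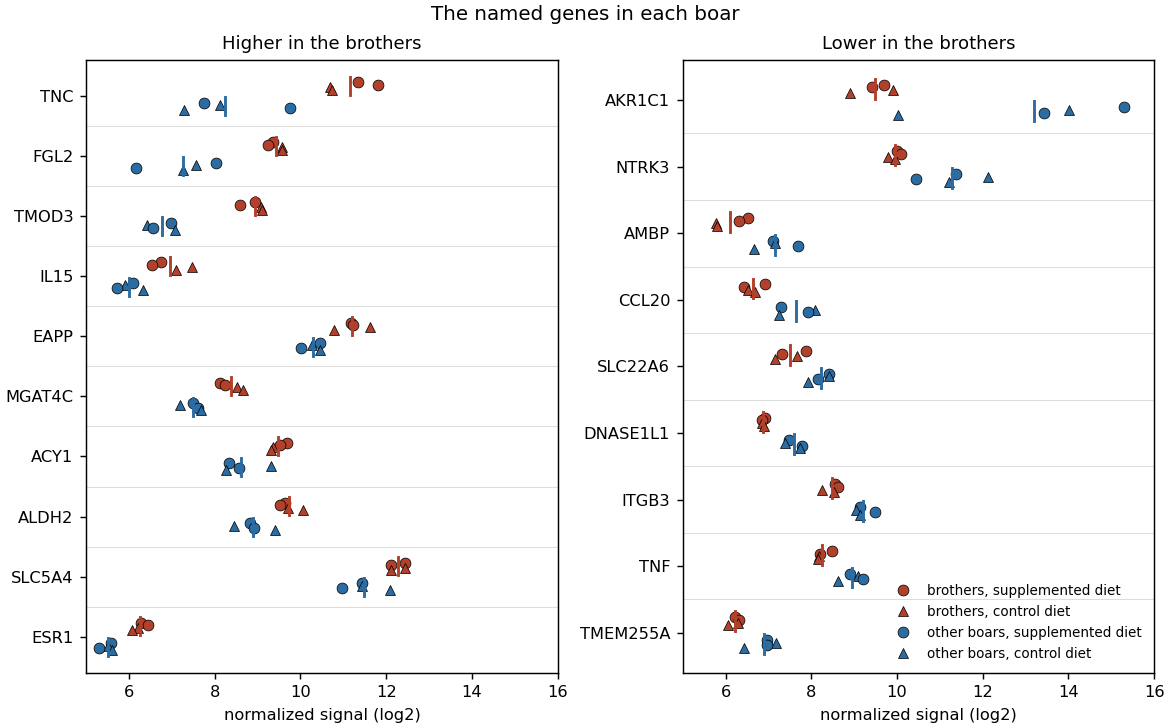
Normalized log2 signal (horizontal axis) of the named genes in each boar, with those higher in the brothers in the left and those lower in the right panel. Circles are the supplemented and triangles the control diet, red the brothers and blue the other boars, and bars are means of 4 boars. The sides do not overlap in any gene shown, which the rule of choice required.

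Among the genes with lower values in the brothers were receptors and signalling proteins. NTRK3, the receptor for neurotrophin-3, read 10, 10.09, 9.79 and 9.96 in the brothers m_9597, m_9599, m_9598 and m_9600 and 11.38, 12.11, 10.43 and 11.22 in m_9499, m_9502, m_9527 and m_9528. The brothers lay close together, the other boars were spread, and the difference was -1.33 (standard error 0.3, limma adjusted P = 0.5). ITGB3, a subunit of the integrin that binds vitronectin and fibrinogen, differed by -0.72 and by -0.72 and -0.71 within the supplemented and the control diet (limma adjusted P = 0.45).

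A pair of inflammatory signals was also lower. TNF, tumour necrosis factor, had 3 present probes with differences of -0.7, -0.54 and -0.16. At the first of these (A_72_P146356) the brothers read 8.16 to 8.48 and the other boars 8.61 to 9.2, without overlap (limma adjusted P = 0.5), while the sides overlapped at the other probes, and the third was well above background on 3 of 8 arrays. CCL20, a chemokine that attracts lymphocytes and dendritic cells, read 6.42 to 6.91 in the brothers and 7.25 to 8.09 in the other boars (difference -1.01, limma adjusted P = 0.529). The other lower genes were AMBP, the precursor of a plasma protease inhibitor (-1.05), SLC22A6, an organic anion transporter (-0.72), DNASE1L1, a DNase-like protein (-0.72), and TMEM255A, a membrane protein (-0.67), all without overlap and with limma adjusted P-values of 0.45 to 0.556. SLC22A6 and DNASE1L1 each had a further probe, and there the sides overlapped, with differences of -0.19 and -0.06.

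Besides TMOD3, the smallest P-values belonged to 4 probes without a gene name, all lower in the brothers. The probe A_72_P347518 read 11.69, 11.33, 10.79 and 11.2 in m_9597, m_9599, m_9598 and m_9600 and 13, 13.13, 13.22 and 12.77 in m_9499, m_9502, m_9527 and m_9528. Its difference of -1.78 (limma adjusted P = 0.133) thus separated a bright probe with narrow sides, m_9528 included. The probe A_72_P295239 read 4.98 to 5.32 in the brothers, where it was well above background on 1 of 4 arrays, and 6.6 to 7.83 in the other boars, with a difference of -2.09 (limma adjusted P = 0.239). The probes A_72_P396488 and A_72_P336083 differed by -1.27 and -1.2 (limma adjusted P = 0.447 each).

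Gene lists were read against the 8.11% of all probes. In the list of drug and xenobiotic metabolism, which was drawn up with earlier results known, 12 of 40 present probes (30%) had a limma P-value under 0.05, 8 higher and 4 lower in the brothers, and the list's median difference was 0.07, against 0.00806 over all probes, and -0.03 when the median signal was scaled to the 75th percentile. The 8 were the 3 probes of ALDH2, 2 of AKR1CL1 and single probes of MGST3, a microsomal glutathione transferase (0.44), CYP2E1, which oxidizes ethanol and small molecules (0.81), and CYP3A29, a pig P450 of the drug-metabolizing CYP3A family (0.65). The 4 were both probes of the first AKR1C1 gene, CYP2B22 (-0.56) and CYP2A19 (-0.48), which are pig P450 enzymes of the CYP2 family. Of these 12, MGST3 and an ALDH2 probe lay wholly above and CYP2A19 and an AKR1C1 probe wholly below the other boars. Since several probes share a gene or a gene neighbourhood, the 12 are not independent. Without m_9528 it was 17 of 40 (42.5%) against 25.7% of all probes.

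The imprinted genes, which are expressed from the copy of a single parent, had 6 of 26 present probes (23.1%) under 0.05, all with higher means in the brothers. They were 2 probes of PEG10 (0.67 and 0.39) and 2 of IGF2, the insulin-like growth factor 2 (0.47 and 0.34), NDN, or necdin (0.58), and PLAGL1, a zinc finger transcription factor (0.49). IGF2 did not read alike over its probes. Both of these were dim, at 6.84 to 7.87 over the boars, and did not overlap, while the brightest IGF2 probe (A_72_P303139) overlapped widely with a difference of -0.53, and a further one (A_72_P414443) stood at -0.25. PEG10 gave 3 more probes with differences of -0.05 to 0.13. Over the whole list the median difference was 0.12 and 14 of 26 were positive, but the median was -0.03, with 12 of 26 positive, when the median signal was scaled to the 75th percentile. With this scaling 3 of 26 were under 0.05, and with the same scaling of the background-subtracted signal 2 of 26, again all higher. Without m_9528 it was 5 higher and 1 lower of 26, which is 23.1% and below the 25.7% of all probes.

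Genes of the pathways that the diet supplies were compared between the sides with the diets balanced. In the list of folate, vitamin B and methyl group metabolism 4 of 29 present probes (13.8%) were under 0.05. GNMT, which disposes of excess methyl groups by methylating glycine, read 9.24, 9.05, 9.68 and 8.52 in m_9597, m_9599, m_9598 and m_9600, and 5.99, 5.63, 8.65 and 8.73 in m_9499, m_9502, m_9527 and m_9528. All brothers and a pair of the other boars, 1 on each diet, were thus at the higher level, and the remaining pair, again 1 on each diet, was low. The difference was 1.87 (standard error 0.75, limma adjusted P = 0.595). MAT2B, the regulatory subunit of methionine adenosyltransferase, lay higher in every brother (11.48 to 12.05 against 11.14 to 11.38, difference 0.5). MMAB, which makes the coenzyme form of vitamin B12, differed by 0.49 and FOLR1, a folate receptor, by -0.68, and at their further present probes, 2 of MMAB and 3 of FOLR1, no P-value was under 0.05.

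The swine leukocyte antigens, which are among the most variable genes between pigs, gave 1 of 32 present probes under 0.05. It was an SLA-3 probe (A_72_P114481) that read 9.3, 8.97, 11.23 and 9.79 in m_9597, m_9599, m_9598 and m_9600, and 11.93, 10.35, 12.25 and 11.98 in m_9499, m_9502, m_9527 and m_9528. The brother m_9598 lay above m_9502, so that the sides overlapped, and the difference was -1.8. The other SLA-3 probe differed by 0.34 in the other direction, with overlap. The median of the list was 0.16. SLA-DRA, a chain of the class II molecule, was highest in the brother m_9600 at each of its 4 probes, for example with 13.15 (A_72_P176171) against 10.96 to 12.21 in the remaining boars. The medians of the macrophage (0.73), T, B and mast cell (0.25) and interferon response (0.34) lists, relative to the mean of all boars, were also highest in m_9600, and their part in the SLA-DRA values was not tested.

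Cell type markers were compared to see whether the tissue composition went with the side. Of 22 Leydig cell probes 1 was under 0.05, CYP19A1 or aromatase, which makes oestrogens (A_72_P173936, 9.37 to 9.93 in the brothers and 9.76 to 10.64 in the other boars, difference -0.7), and the list's median per boar, relative to the mean of all boars, ranged from -0.38 to 0.33 in the brothers and from -0.8 to 0.78 in the other boars. Of 12 spermatid and 3 spermatocyte probes 0 were under 0.05, with limma and without adjustment. With all boars 11 of the 12 spermatid differences were positive, but 6 of 12 when the median signal was scaled to the 75th percentile. Without m_9528 it was 5 of 12 (41.7%) and 2 of 3 (66.7%) under 0.05, all higher in the brothers, against 25.7% of all probes. CRISP2 gave several of these spermatid probes, and a PGK2 probe counts in both lists, so that these probes are not independent. Among 13 Sertoli cell probes CLU, or clusterin, was under 0.05 with a difference of 0.92, and WT1, a transcription factor, had no overlap with a difference of 0.25. All 6 probes of spermatogonia had higher means in the brothers, under each scaling tried, with a median of 0.51, and KIT, the receptor for stem cell factor, was under 0.05 and did not overlap at 1 of its 2 probes (0.89), with a lowest brother of 8.84 and a highest other boar of 8.8. This list ranged from 0.12 to 0.6 in the brothers and from -0.42 to 0.17 in the other boars. Its 6 probes belong to 3 genes, KIT, CD9 and UCHL1, and are not independent.

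Other cells of the tissue gave few or dim probes. Of 10 probes for duct epithelium 3 were under 0.05, with ESR1 and WFDC2, an epididymal protein (0.63), higher and AQP5, a water channel (-0.52), lower, and the list's median was 0.44, ranging from -0.03 to 0.33 in the brothers and from -0.48 to 0.36 in the other boars. Of 8 probes for T, B and mast cells 2 (25%) were under 0.05, both with higher means in the brothers. Among these was a CD3G probe, a subunit of the T cell receptor complex, and it was well above background on 0 of 4 arrays of the other boars and so has only a bound, at least 1.44-fold higher in the brothers. The bound sets the brothers' mean against the higher of the probe's own signal and the lowest signal well above background on each array of the other boars. CD3G did not read alike over its probes. Without m_9528 a further CD3G probe (A_72_P354513) leaned the other way with a difference of -0.53, against 0.63 at the CD3G probe above. For macrophages 1 of 11 was under 0.05, LYZ, or lysozyme (0.67). For peritubular smooth muscle it was 2 of 7 (28.6%), MYLK, the myosin light chain kinase (0.64), and DES, or desmin (0.39), which was dim. Further probes of both genes did not all lean this way. Without m_9528 the further DES probes differed by -0.32 and -0.22, and the further MYLK probes by 0.98 and -0.18. Adipose tissue markers had 1 of 6 and endothelium 0 of 7 under 0.05, by limma without adjustment. The part of cell composition in the gene differences was not tested.

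**Figure D5:**
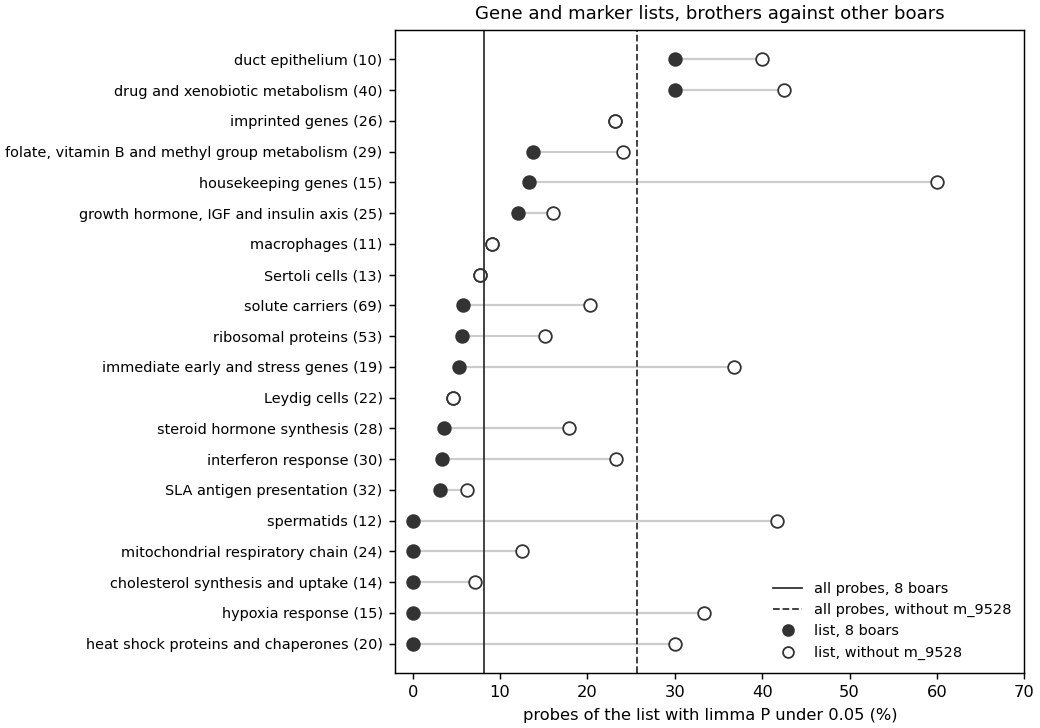
Share of present probes with a limma P-value under 0.05 (horizontal axis, percent) in each list with at least 10 present probes, whose number stands in brackets. Filled points are all 8 boars and open points the 7 boars without m_9528, and the lines are the shares over all probes, 8.11% and 25.7%. The drug metabolism and duct epithelium lists lie at 30% with all boars.

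The shares without m_9528 in this paragraph stand against 25.7% of all probes, and those with all boars against 8.11%. Immediate early and stress genes had 1 of 19 probes (5.26%) under 0.05, and 36.8% without m_9528. Solute carriers had 4 of 69 probes under 0.05, with SLC5A4 higher and SLC5A5, the iodide transporter (-0.81), SLC22A6 and SLC46A2 (-0.7) lower. The interferon list had 1 of 30 (EIF2AK2, 0.64), steroid hormone synthesis 1 of 28, the growth hormone and IGF axis 3 of 25, and heat shock proteins, hypoxia response, cholesterol synthesis and the respiratory chain 0 of 20, 0 of 15, 0 of 14 and 0 of 24 by limma P-values without adjustment. Without m_9528 the shares of the last lists were 30%, 33.3%, 7.14% and 12.5%, in the same order. Ribosomal proteins had 3 of 53 under 0.05 and positive differences in 43 of 53, and the latter flipped with scaling to the 75th percentile, where 25 of 53 were positive with the median signal and 23 of 53 with the background-subtracted signal. Housekeeping genes had 2 of 15 under 0.05 with a median of 0.47, and 9 of the 15 without m_9528 (60%), but 8 of the 15 probes belong to EEF1A1.

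Whether the difference between the sides depended on the diet was tested as an interaction. No probe passed the adjusted threshold (limma, smallest adjusted P = 0.243), and 738 probes were under 0.05 without adjustment, which is 2% of the probes. The smallest P-value belonged to the unnamed probe A_72_P251002, which read 7.14 and 7.12 in the supplemented brothers, 5.52 and 5.26 in the control brothers, 5.21 and 5.34 in the other supplemented boars, and 7.05 and 7.49 in the other control boars. The diet thus went with opposite levels on the sides. With 2 boars in each cell, the precision of this test is low.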

How the data were processed

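Testis RNA of 8 boars was measured on 1-colour Agilent arrays. The authors deposited scanner output of Feature Extraction (version 10.5.1.1 per the file headers) with the intensity of each spot, and a table of log2 values that they had quantile-normalized. Here the log2 of the deposited median intensity of non-control spots was quantile-normalized, spots of 1 probe were averaged, and a probe counted as present with an intensity above 25 and a well-above-background flag in at least 2 of the 4 boars on either diet. Precision is limited by 4 arrays a side. The sides were compared with limma 3.58.1 (R 4.3.3) with diet as a term and Benjamini-Hochberg adjustment, after the code had been tested on simulated data. Litter membership came from the study's methods and the animal numbers, not from a label. Probes were named through the RefSeq table and a supplementary table, for 3064 probes. Since no probe passed adjustment, the genes named were the 10 in each direction with the largest difference among probes with P under 0.01 and no overlap, the 5 probes with the smallest P-values, and the probes with P under 0.05 of each list described; further probes of these genes and the AKR1C1 neighbours were chosen after their values were seen. Some genes that this rule picks are not reported here. Members, lists and rules were chosen with earlier results of these data known. Alternatives were other scalings, filters, covariates, variance models and leaving out each boar.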

Additional observations from a re-analysis of the deposited data

Results flagged for a closer look

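In 3 of 100 groups of 4 boars, 1 boar stood apart from the other 3 by more than the critical value of Dixon's gap ratio allows, and chance alone gives about 5% of groups. The TNF probe A_72_P146356 read 8.48 in the brother m_9597 against 8.16 to 8.2 in the other brothers (ratio 0.875). The median of the immediate early and stress genes, relative to the mean of all boars, was 0.32 in the brother m_9600 against -0.01 to 0.02 in the other brothers (ratio 0.909). The median of the endothelium markers was -0.28 in m_9502 against -0.03 to 0.01 in the other boars of its side (ratio 0.862).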

How the results depend on the processing

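The count of 0 probes past the adjusted threshold became 2 when arrays were scaled to their 75th percentile after background subtraction, 3 when this was done without subtraction, 1 without the diet term and 2 with array weights, and each of these probes was past 2-fold. With a boar left out it ranged from 0 to 9, with 9 without m_9528, 2 without m_9598 and 1 without m_9499. The count under an unadjusted 0.05 became 7540 with array weights, which gave m_9528 a weight of 0.21, and 740 on the control diet alone, and it ranged from 1557 without m_9599 to 9519 without m_9528 (1906 without m_9597 and 1963 without m_9598). That count and the list values without m_9528 were added after seeing the data. Probes without overlap ranged from 2841 to 10084 with a boar left out, with 3518 without m_9499 and 3453 without m_9527, where fewer boars make separation easier. The interaction gave 0 adjusted calls in every fit made. Over 574 values of 24 named probes, 0 changed direction and 11 passed the adjusted threshold. The sides did not overlap in any of the 24, which the rule of choice required for most of them. This left little room for a change of direction, so the 0 says little about stability. The cause of these moves was not tested. Dim probes near background, 4 boars a side and the shared slide limit every value. No paired analysis was possible because the replicate numbers only follow accession order and no label ties a brother to a boar of the other side. With neighbouring places of the slide as a term, 0 probes passed the adjusted threshold and 2473 were under an unadjusted 0.05.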

Other observations

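Some probes were not graded but stood at separate levels in different boars. With at least 3 log2 units between the levels and at most 1 within each, a rule chosen after the values were seen, 25 probes did so, and none of them separated all brothers from all other boars. The brothers were split in 13 of them and the other boars in 15, and in 18 a single boar stood apart. The probes A_72_P301804 and A_72_P432374, designed on the same transcript, read 17.09, 17.2 and 16.95 and 12.59, 12.83 and 12.25 in m_9597, m_9599 and m_9600, while the brother m_9598 (13.32 and 8.29) was at the level of the other boars (13.1 to 13.5 and 8.22 to 9.17). The probe A_72_P066171 read 11.97 to 12.58 in the brothers and 12.72 in m_9499, but 7.23 to 7.54 in the remaining boars. SAL1, a salivary lipocalin, read 9.73 in m_9527 and 13.74 to 14.72 elsewhere (A_72_P088261), and the 3 probes of LOC396781 read 11.18, 11.15 and 10.3 in the brother m_9600, against at most 6.48 in any remaining boar. These values are given as measured, with no test.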
